A study of Mus musculus with 12 samples.

Results

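The nuclear-encoded subunits of the oxidative phosphorylation complexes were followed through 12 RNA libraries from tumor-infiltrating myeloid cells. They were taken as the protein-coding genes of the mouse GENCODE annotation whose symbols begin with Nduf and a subunit letter and number, Sdha to Sdhd, Uqcr, Cox4 to Cox8 with an isoform letter, or Atp5. This rule found 85 of the 54446 genes in the count files: 37 of complex I, 4 of complex II, 8 of complex III, 18 of complex IV and 18 of complex V. Of these, 80 passed the filter on low counts in the unirradiated comparison of immunoprecipitate with input. Cox8b, Cox8c and a read-through copy of Atp5o had 3 counts or fewer in every library, and Cox7b2 and Ndufa4l2, with at most 10 and 5 counts, passed in none of the 5 comparisons.

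All mice were Ythdf2 fl/fl without Cre on a C57BL/6J background, called WT, male and female and 8 to 10 weeks old. They carried MC38 tumors, a transplanted mouse colon carcinoma line, and CD11b+ myeloid cells were sorted from the tumors. The tumors either received 1 local dose of 20 Gy ionizing radiation (IR) with cells collected 3 days later, or were left unirradiated (Ctrl). Each condition had 3 pools of 5 mice, each pool giving an Input library and a library of RNA co-precipitated with the m6A reader YTHDF2 (IP), so there were 4 groups with n = 3. The study describes the pools as technical replicates, so p-values measure the spread between these libraries only. The labels describe mRNA isolation before the RIP, whereas the methods describe RIP on cleared cell lysate followed by a total RNA library kit, and the supplier of the YTHDF2 antibody also differs between them.

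Oxidative phosphorylation couples electron transfer in the inner mitochondrial membrane to ATP synthesis. Complex I (NADH dehydrogenase) and complex II (succinate dehydrogenase) pass electrons through ubiquinone to complex III and, by cytochrome c, to complex IV (cytochrome c oxidase), and complex V (ATP synthase) uses the resulting proton gradient. A few core subunits carry the redox centers or the catalytic sites, and many small accessory subunits surround them. YTHDF2 binds mRNAs carrying m6A, a methyl mark placed mostly within a short DRACH sequence of which GGACU is the best known form, and promotes their decay.

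The libraries held 27852948 to 42382532 counts on genes, so 3 counts corresponded to 0.0738 to 0.112 CPM (counts per 1000000 counts of the TMM-scaled library size). Reads assigned to no gene made up a mean of 27.0% in Ctrl Input, 24.7% in IR Input, 42.3% in Ctrl IP and 51.4% in IR IP. Among sets of marker genes, the neutrophil set summed to 5756 to 6486 CPM in Ctrl Input and 8109 to 8852 in IR Input, with 4 of 6 genes higher and 0 lower. The general myeloid set summed to 4994 to 5114 and 6154 to 6191 CPM, with 6 of 10 genes higher and 3 lower. T and NK, B, fibroblast, endothelial and striated muscle sets stayed at or under 49.4 CPM in every library, and the carcinoma or epithelial set was at 119 to 127 CPM in Ctrl Input and 90.9 to 96.9 in IR Input. In such bulk samples fewer cells of a type and less RNA per cell cannot be told apart.

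The members together made up a mean of 0.875% of counts on genes in Ctrl Input, 1.02% in IR Input, 0.318% in Ctrl IP and 0.374% in IR IP. In CPM their sum was 8599 ± 9.7 (SD, n = 3) in Ctrl Input, 10742 ± 58 in IR Input, 3376 ± 59 in Ctrl IP and 3428 ± 94 in IR IP. The Input groups did not overlap (8588 to 8607 against 10691 to 10805 CPM), whereas the Ctrl IP and IR IP ranges did (3309 to 3422 and 3350 to 3532 CPM). Complex V and complex I held the largest sums in Ctrl Input, 2643 and 2572 CPM, followed by complex IV at 2058, complex III at 908 and complex II at 417 CPM. In Ctrl IP complex IV came first with 1234 CPM, followed by complex I at 1017, complex V at 725, complex III at 261 and complex II at 140 CPM.

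Much of the complex IV sum in IP came from 1 gene. Cox7a2l is a relative of the Cox7a subunits linked to the assembly of complexes III and IV into supercomplexes, which was not measured in these mice. It took 2.4% of the members' CPM in Ctrl Input and 24% in Ctrl IP, and 2.85% and 22.3% in IR Input and IR IP. Without it the members summed to 8392 CPM in Ctrl Input and 2567 in Ctrl IP.

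Scaled by exon length, the most abundant members in Ctrl Input were small subunits. Cox8a, the smallest complex IV subunit, reached 389 ± 5.9 CPM per kb of merged exons, followed by Cox4i1 at 230 ± 14, Ndufa2 at 218 ± 2.5, Atp5mpl at 214 ± 15 and Atp5h at 210 ± 14 CPM per kb. Neighbours among the last 4 did not differ beyond their spread. Large core or catalytic subunits were lower: Sdha, the flavoprotein of succinate dehydrogenase, stood at 22.1 CPM per kb, Uqcrc1 at 20.7 and Ndufs1, the largest core subunit of complex I, at 6.89 CPM per kb. The median over members was 53.1 CPM per kb with merged exons and 94.5 with the longest coding transcript as the length.

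Isoform pairs were unequal. Of the genes encoding the same c-ring protein of ATP synthase, Atp5g3 was at 40.3 CPM per kb, Atp5g2 at 30.2 and Atp5g1 at 12.3. The annotated 3′ UTR of Atp5g1 has 4255 bases, against a median of 157 over tested members. Its low place per kb rests on that length, and use of this UTR in the cells was not tested. The widely expressed Cox4i1 was far above Cox4i2, its oxygen-regulated counterpart, at 1.21 CPM per kb. Cox6a2 and Cox7a1, the striated muscle forms, were at 1.21 and 1.51 CPM per kb in Ctrl Input, against 174 for the liver-type Cox6a1, and Cox6b2, the testis form, at 1.87 against 140 for Cox6b1. In Ctrl IP the first place went to Cox7a2l at 547 ± 1.8 CPM per kb, ahead of Ndufa2 at 98.8 and Atp5h at 92.2.

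The first question was which subunit mRNAs were recovered in the YTHDF2 IP. The libraries include no control IP, so IP against Input cannot tell RNA bound by YTHDF2 from RNA carried along unspecifically. In Ctrl, 75 of the 80 tested members were lower in IP than in Input and 1 was higher (edgeR quasi-likelihood test, Benjamini-Hochberg adjusted over all genes), where 34.6% of all genes tested were lower and 34.1% higher. The median log2 IP against Input was -1.77 over members, 0.018 over all genes, -0.10 over nuclear protein-coding genes and -0.67 over such genes with at most 2000 bases of merged exons. After IR, 76 of 79 tested members were lower and 1 was higher, against 30.4% and 32.1% of all genes, with a median of -2.01 against 0.10 over all genes. The member called higher was Cox7a2l both times. The values are relative to the other RNAs of each library, and TMM scaling cannot show a change shared by most genes.

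**Figure D1:**
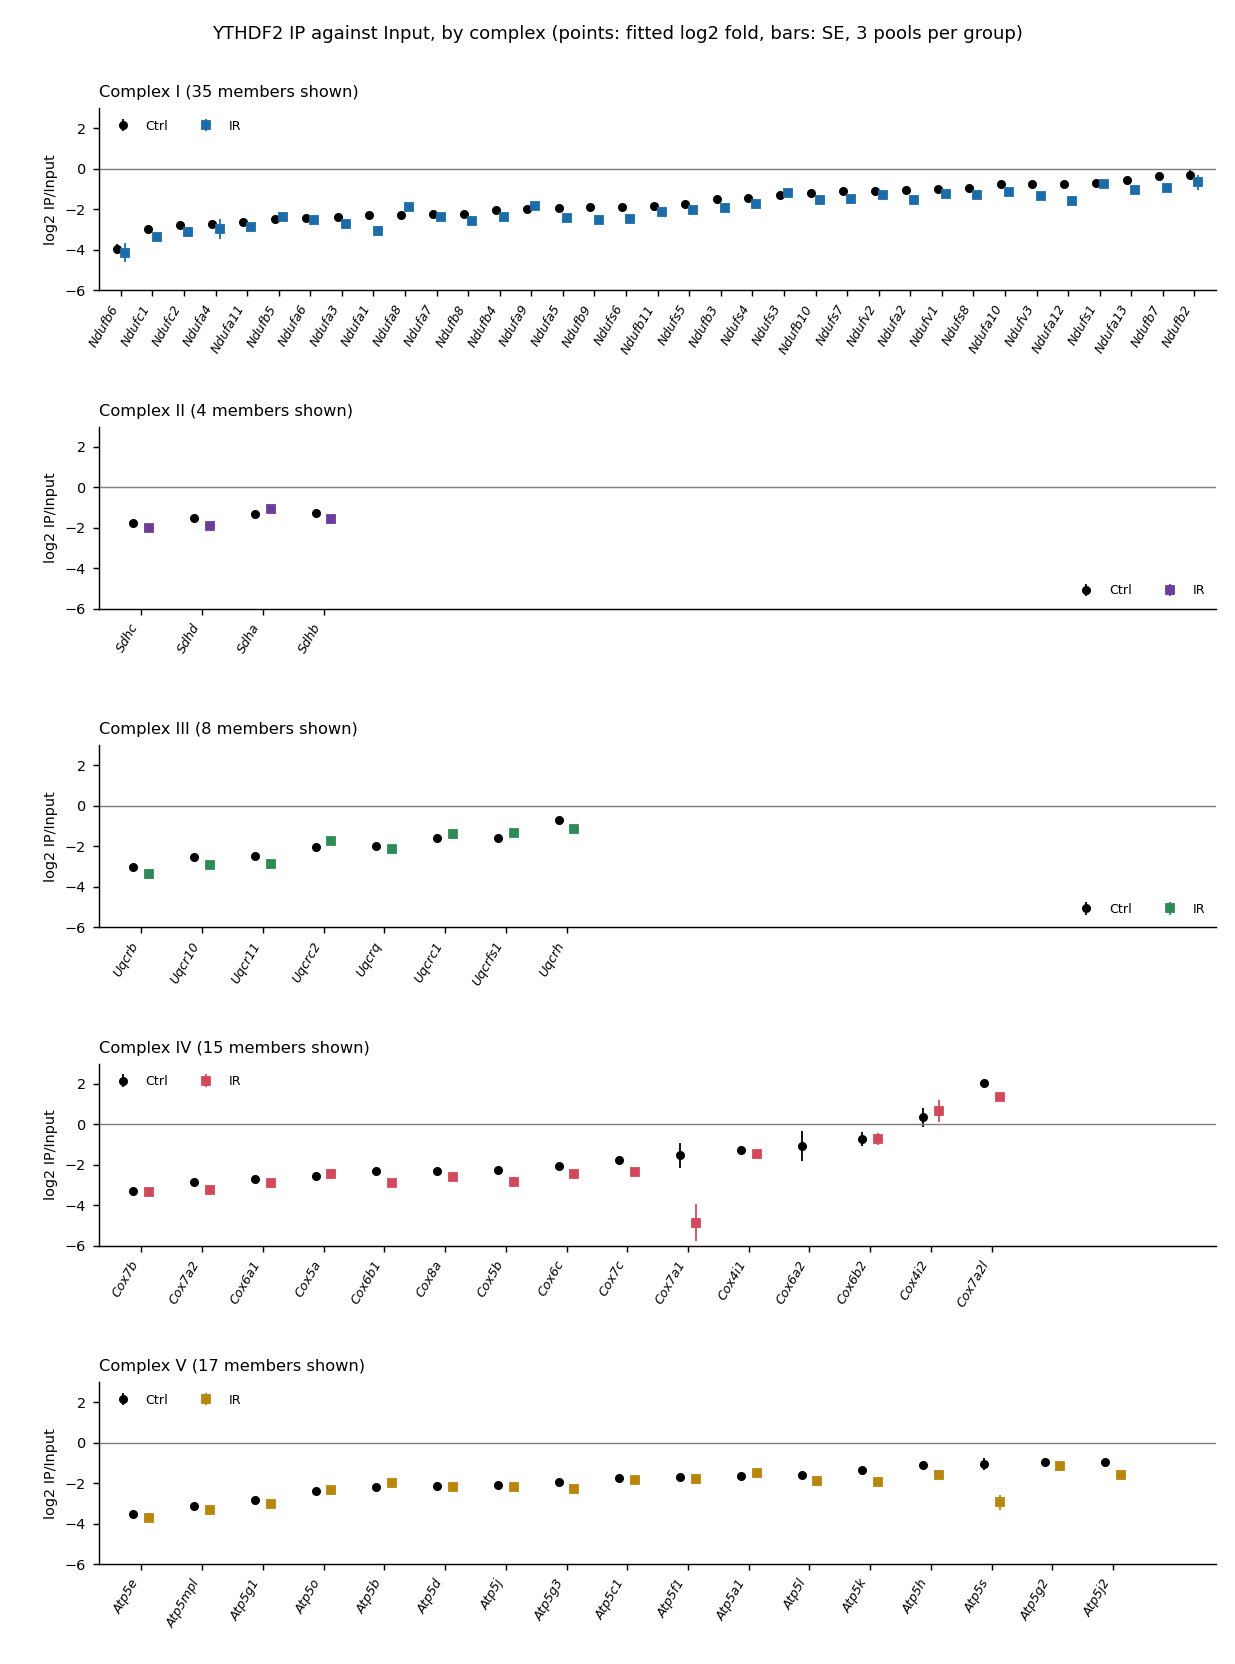
Log2 IP against Input (vertical axis) in Ctrl (black circles) and IR (colored squares) for 79 of the 80 members tested in Ctrl, 1 panel per complex, with bars for the standard error from the edgeR fit (n = 3 pools). Nearly all members lie below 0, and Cox7a2l lies well above it at 2.04 in Ctrl and 1.37 after IR.

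The same direction was found in every complex. In Ctrl 35 of 36 tested members of complex I were lower with a median of -1.81, 4 of 4 of complex II (-1.42), 8 of 8 of complex III (-2.01), 11 of 15 of complex IV (-2.04) and 17 of 17 of complex V (-1.76). The 4 members that did not pass in either direction were Cox4i2, Cox6a2 and Cox6b2, which were scarce in all libraries, and Ndufb2, a complex I accessory subunit at 4.82 to 5.88 CPM in Ctrl Input and 3.07 to 5.59 in Ctrl IP. After IR the medians were -1.92, -1.74, -1.94, -2.53 and -2.01 for complexes I to V. Moving Ndufa4, which is named as a complex I subunit but found in complex IV, gave -1.88 for complex I and -2.59 for complex IV after IR.

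Core and catalytic subunits were less depleted than the others by their medians. The 15 core and catalytic members had a median of -1.30 in Ctrl and the 65 other tested members -1.94, and after IR the medians were -1.36 and -2.34. Within complex I the core subunits stood at -1.01 and the accessory subunits at -1.93. Within complex III the small subunits stood at -2.47, the core proteins at -1.83 and the Rieske protein Uqcrfs1 at -1.57, and within complex V the F1 head stood at -2.12 and the membrane and stalk part at -1.65. The difference between roles was not tested, and it runs alongside length, described further on.

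Cox7a2l had 211, 210 and 199 CPM in the Ctrl Inputs and 807, 808 and 812 CPM in the Ctrl IPs. After IR it had 303, 314 and 303 CPM in Input and 756, 800 and 734 CPM in IP. The IP and Input libraries were far apart in both conditions. The log2 IP against Input was 2.04 (SE 0.039, adjusted p = 1.49e-17, 4.12-fold) in Ctrl and 1.37 (SE 0.043, adjusted p = 5.46e-10, 2.58-fold) after IR by edgeR. It was called higher under each of the 11 alternative analyses of both comparisons.

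The Cox7a2l gene lies on the minus strand of chromosome 17 (chr17:83501918-83517330, GRCm38). Its longest coding transcript, with 4 exons, is shown because it held 3 GGACT motifs, the DNA form of GGACU, and all 3 fell in the 3′ UTR in exon 4. They began at positions 474, 769 and 1109 of the 1129-base transcript. The starts lie 17, 312 and 652 bases past the last annotated coding base, distances that include the stop codon. The 29 bases around each are given 5′ to 3′ on the transcript strand with the motif in capitals, at chr17:83502573-83502601, chr17:83502278-83502306 and chr17:83501938-83501966 in this order.
Cox7a2l site 1: cttgcctgtggaGGACTggttcactttgt
Cox7a2l site 2: ctcagggcctcgGGACTcaggcggtgtct
Cox7a2l site 3: ttatgattgaccGGACTgcggaataaaca
Methylation was not measured in these libraries, and a match of letters is not a methylated site. Of the 80 tested members, 17 (21.2%) had GGACT in the 3′ UTR, against 57.4% of 13019 tested nuclear protein-coding genes. The median log2 IP against Input in Ctrl was -1.77 for members with the motif there and -1.77 for those without, against -0.02 and -0.23 among coding genes. Members with 3 or more such motifs were 4 in number and spread widely. They were Atp5g1 with 7 motifs at -2.83, Uqcrq with 4 at -1.97, Ndufb2 with 4 at -0.30 (not past the test) and Cox7a2l at 2.04. Their annotated 3′ UTRs differ in length, 4255, 1137, 4015 and 672 bases in this order. Whether the cells use the long forms was not tested.

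Its close relative Cox7a2, the widely expressed complex IV subunit, behaved otherwise. Cox7a2 had 62.1, 63.9 and 69.3 CPM in the Ctrl Inputs and 9.41, 8.37 and 8.2 CPM in the Ctrl IPs. Its log2 IP against Input was -2.83 (SE 0.09, adjusted p = 1.27e-14 by edgeR), 7.13-fold lower in IP, and -3.27 (SE 0.1) after IR. The muscle form Cox7a1 had 22, 47 and 24 counts in the Ctrl Inputs and 8, 9 and 7 in the Ctrl IPs, and its call at adjusted p = 0.0377 (edgeR, log2 -1.52, SE 0.62) was lost in several alternative analyses.

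**Figure D2:**
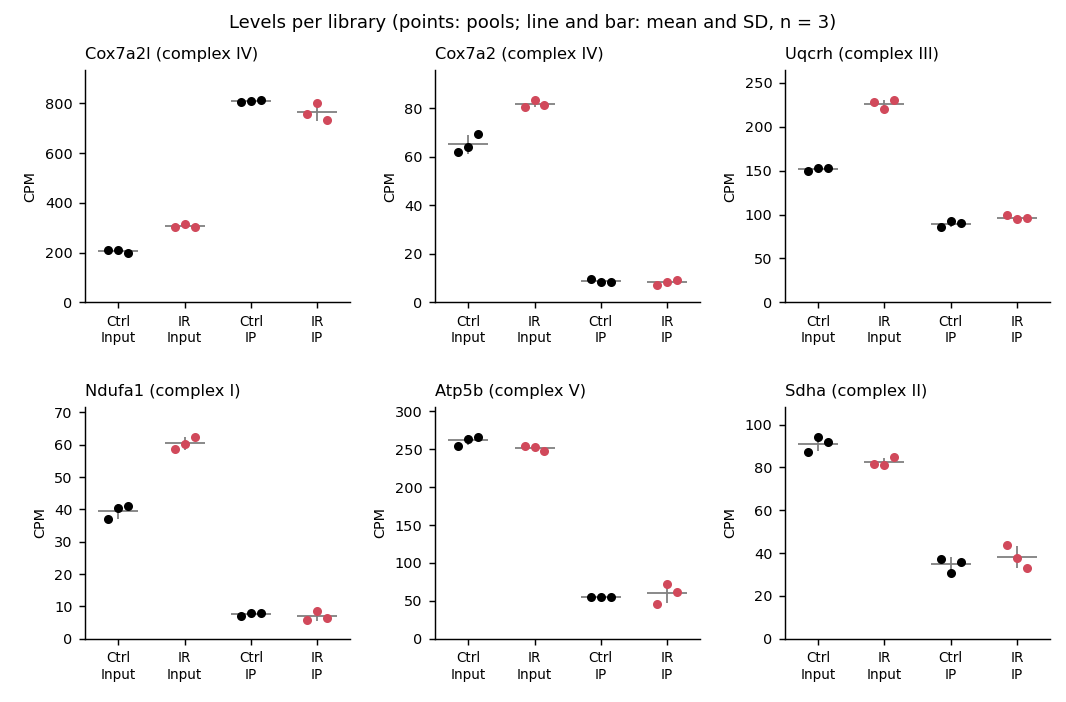
CPM in each of the 12 libraries (points) with the group mean and SD (line and bar, n = 3) for Cox7a2l, Cox7a2, Uqcrh, Ndufa1, Atp5b and Sdha. Cox7a2l is the 1 panel in which IP stands above Input (734 to 812 against 199 to 314 CPM), and Uqcrh and Ndufa1 rise from Ctrl to IR in Input.

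The strongest depletion was found among small accessory subunits. Ndufb6, in the membrane arm of complex I, had 19.5, 23.4 and 20.2 CPM in the Ctrl Inputs and 1.79, 0.875 and 1.23 CPM in the Ctrl IPs. These groups did not overlap, and the log2 IP against Input was -3.94 (SE 0.2, adjusted p = 1.03e-11 by edgeR), 15.3-fold lower. An opposite-strand gene, Smim27, overlaps 39% of its exon bases, and the strand setting of the counting is not given in the sources used here.

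Atp5e, the epsilon subunit of the F1 stalk, had 90.8, 94.3 and 98.9 CPM in the Ctrl Inputs and 9.51, 6.81 and 6.86 CPM in the Ctrl IPs (log2 -3.54, SE 0.1, adjusted p = 4.38e-15 by edgeR). Cox7b, a transmembrane subunit of complex IV, had 177, 170 and 159 CPM in Input and 15.7, 16.9 and 16.7 CPM in IP (log2 -3.28, SE 0.067, adjusted p = 3.25e-17 by edgeR). Uqcrb, the ubiquinone-binding subunit of complex III, had 106, 101 and 99.1 CPM in Input and 9.67, 12.6 and 13.7 CPM in IP (log2 -3.02, SE 0.098, adjusted p = 1.6e-14 by edgeR). In all 3 genes Input and IP were clearly apart. Next in the same complexes came Atp5mpl at -3.12, Ndufc1 at -2.98 and Uqcr10 at -2.53. After IR these members stayed lower in IP, from -4.15 for Ndufb6 to -2.95 for Uqcr10.

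Complex II, the smallest complex, was the least depleted in Ctrl. Its membrane anchors Sdhc and Sdhd stood at -1.77 (SE 0.063, 3.42-fold lower) and -1.52, and its catalytic subunits Sdha and Sdhb at -1.32 and -1.28. Sdhc had 139, 132 and 132 CPM in the Ctrl Inputs and 34.5, 38.2 and 39.2 CPM in the Ctrl IPs, which did not overlap.

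Some members were less depleted than most, though still below the medians of 0.018 over all genes and -0.10 over nuclear protein-coding genes. Ndufb7 stood at -0.36, Uqcrh at -0.69, Ndufs1 at -0.71 and Atp5g2 at -0.96, all called lower in Ctrl. Uqcrh had 150, 153 and 153 CPM in the Ctrl Inputs and 85.6, 92.4 and 90.7 CPM in the Ctrl IPs. The catalytic ATP synthase subunits Atp5a1 and Atp5b stood at -1.62 and -2.17. The c-ring genes, which encode an identical mature protein, differed in recovery, with Atp5g1 at -2.83, Atp5g3 at -1.94 and Atp5g2 at -0.96. Pseudogene copies near-identical to Atp5g2 held 9.58% as many counts as the gene, so its counts are uncertain to that extent.

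Short length was a feature of most members that the rule had not used. The tested members had a median of 1578 bases of merged exons, against 4429 for nuclear protein-coding genes. Their longest coding transcript had a median of 787 against 2921 bases, with a coding part of 417 against 1383 bases. The 3′ UTR, counted with the stop codon, had 157 against 913 bases, and there were 4 against 9 exons. No GGACT occurred in the transcript of 36.2% of members against 8.61% of coding genes, but per kb the medians were close, 0.997 and 1.06. By number of GGACT in the transcript, the median log2 IP against Input was -1.89 for the 29 members with none, -1.76 for 31 with 1, -1.88 for 8 with 2 and -1.64 for 12 with 3 or more.

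Among short genes in general IP recovery was lower too, though not as low as for the members. With up to 1000 bases of merged exons the medians in Ctrl were -2.29 for 20 members and -1.42 for coding genes, and from 1000 to 2000 bases -1.90 for 31 members and -0.48 for coding genes. From 2000 to 4000 bases they were -1.44 for 19 members and -0.24, and over 4000 bases -1.59 for 10 members and 0.043. Spearman's rho of log2 IP against Input with transcript length was 0.31 across members and 0.24 across coding genes, a description over genes that share the same libraries. How much of the depletion goes with transcript length through library preparation was not tested.

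**Figure D3:**
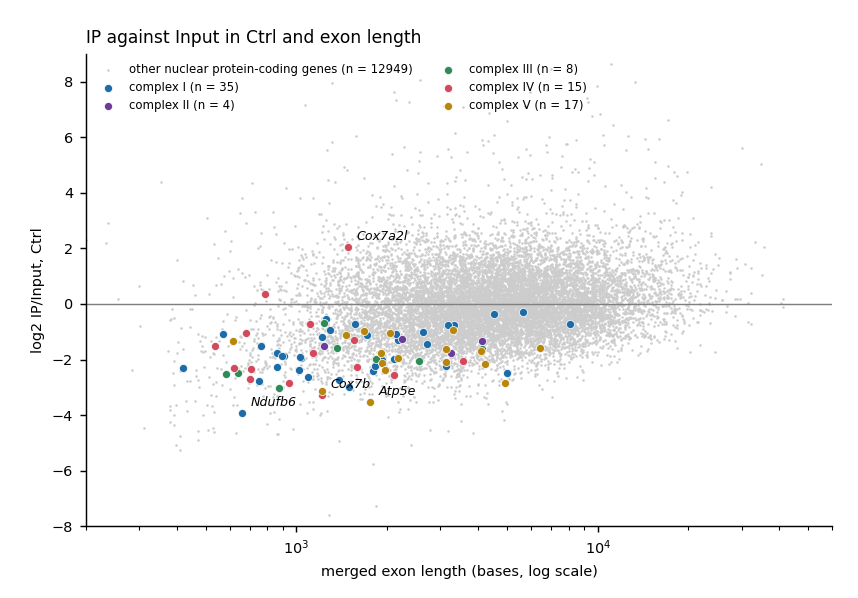
Log2 IP against Input in Ctrl plotted against merged exon length on a log axis, for members (colored by complex) and all tested nuclear protein-coding genes (grey). The members lie within the range of grey points of similar length, with a lower median in each length bin. Cox7a2l, at 2.04, lies above the other members but inside that range.

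Other mitochondrial gene lists gave a scale for these values. In Ctrl, 0 of 17 enzymes of the TCA cycle, which supplies NADH and succinate, were higher in IP and 16 were lower with a median of -1.12, and of 77 tested mitochondrial ribosomal proteins 10 were higher and 57 lower (-0.81). Import translocases gave 2 higher and 16 lower of 21 (-0.95), complex I assembly factors 5 and 8 of 17 (-0.47), assembly factors of complexes II to V 8 and 15 of 31 (-0.21), and regulators of mitochondrial biogenesis 6 and 6 of 16 (-0.029). Outside mitochondria, cytosolic ribosomal proteins gave 0 higher and 78 lower of 82 (-1.18) and proteasome subunits 5 and 30 of 39 (-0.98). The 3 nuclear genes Cyc1, Cycs and Ndufab1, which belong to the chain but not to the name pattern, were all lower (-1.68). Of the 13 mitochondrially encoded subunits, which are transcribed inside the organelle, 11 were lower and 1 higher (-2.03). So the median of the members was lower than that of each other nuclear list, without a test of the difference.

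The second question was how irradiation changed the subunit mRNAs in the cells. In Input, 61 of 80 tested members were higher in IR and 5 were lower (edgeR), against 21.0% and 23.9% of all genes. The median log2 change was 0.24 over members, 0.0072 over all genes and 0.16 over short coding genes, of which 36.4% were higher and 11.2% lower. The direction of the median was the same under every scaling (0.22 to 0.25). The number higher was 43 when all 12 libraries entered 1 fit and the number lower was then 0, and 41 of the 61 were called in every alternative analysis.

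The rise was made up mostly of accessory subunits. In complex I 28 of 36 members were higher and 1 lower (median 0.18), in complex II 2 and 1 of 4 (0.13), in complex III 6 and 1 of 8 (0.21), in complex IV 13 and 1 of 15 (0.32), and in complex V 12 and 1 of 17 (0.19). Of the 15 core and catalytic members 5 were higher and 4 lower with a median of 0.041, and of the 65 others 56 were higher and 1 lower with a median of 0.27. Every one of the 10 accessory subunits of complex IV, the 5 small subunits of complex III and 25 of 29 accessory subunits of complex I were higher. The difference between the 2 kinds of subunit was not tested.

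Uqcrh, the hinge protein of complex III, gave the smallest adjusted p among the members. It had 150, 153 and 153 CPM in the Ctrl Inputs and 228, 220 and 230 CPM in the IR Inputs, without overlap, a log2 change of 0.49 (SE 0.034, adjusted p = 3.66e-12 by edgeR) or 1.41-fold. Cox7a2l rose by the same amount, 0.49 (SE 0.034, adjusted p = 5.24e-12 by edgeR), from the Input values given above. Ndufa1, an X-linked accessory subunit of complex I, rose from 36.9, 40.6 and 41.1 CPM to 58.6, 60.1 and 62.4 CPM (log2 0.53, SE 0.052, adjusted p = 3.37e-09 by edgeR). Ndufa3 followed at 0.45 (SE 0.042), Atp5k, a membrane subunit of ATP synthase, at 0.44 (SE 0.04), Cox4i1 at 0.43 and Atp5g2 at 0.42 (SE 0.05).

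The largest fold change belonged to a scarce isoform. Cox6b2 had 71, 99 and 67 counts in the Ctrl Inputs and 255, 219 and 348 in the IR Inputs, 1.65 to 2.54 against 6.05 to 8.62 CPM (log2 1.69, SE 0.18, adjusted p = 1.8e-08 by edgeR, 3.24-fold). Cox7a1, at 22 to 47 counts in Ctrl Input and 59 to 70 in IR Input, was also called higher (log2 1.0, SE 0.33, adjusted p = 0.0155 by edgeR), while Cox6a2, at 27 to 40 and 7 to 19 counts, was called lower (log2 -1.49, SE 0.48, adjusted p = 0.0123 by edgeR). Beside these muscle isoforms, the striated muscle marker set summed to 5 to 7.45 CPM in Ctrl Input and 9.23 to 10.7 in IR Input, and its part in them was not tested.

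The members that fell were large core or catalytic subunits, apart from Cox6a2. Sdha had 87.2, 94.2 and 91.8 CPM in the Ctrl Inputs and 81.8, 81.1 and 84.9 CPM in the IR Inputs, a log2 change of -0.22 (SE 0.042, adjusted p = 9.86e-05 by edgeR). Uqcrc1, a core protein of complex III, fell by 0.19 (SE 0.044, adjusted p = 8.06e-04 by edgeR) and Atp5b, the catalytic beta subunit, by 0.14 on the log2 scale (SE 0.032, adjusted p = 0.00103 by edgeR), from 254, 264 and 266 CPM to 254, 253 and 248 CPM. Ndufs1 changed by -0.13 (SE 0.049, adjusted p = 0.0253 by edgeR) with Input values of 54.7 to 56.7 CPM in Ctrl and 51.2 to 54.9 in IR, which touch. None of these 5 members was called lower when all 12 libraries entered 1 fit. The 14 members past the test in neither direction were Atp5a1, Atp5g1, Atp5j, Atp5s, Cox4i2, Ndufa4, Ndufa9, Ndufb2, Ndufb8, Ndufs3, Ndufs8, Ndufv1, Sdhb and Uqcrc2.

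**Figure D4:**
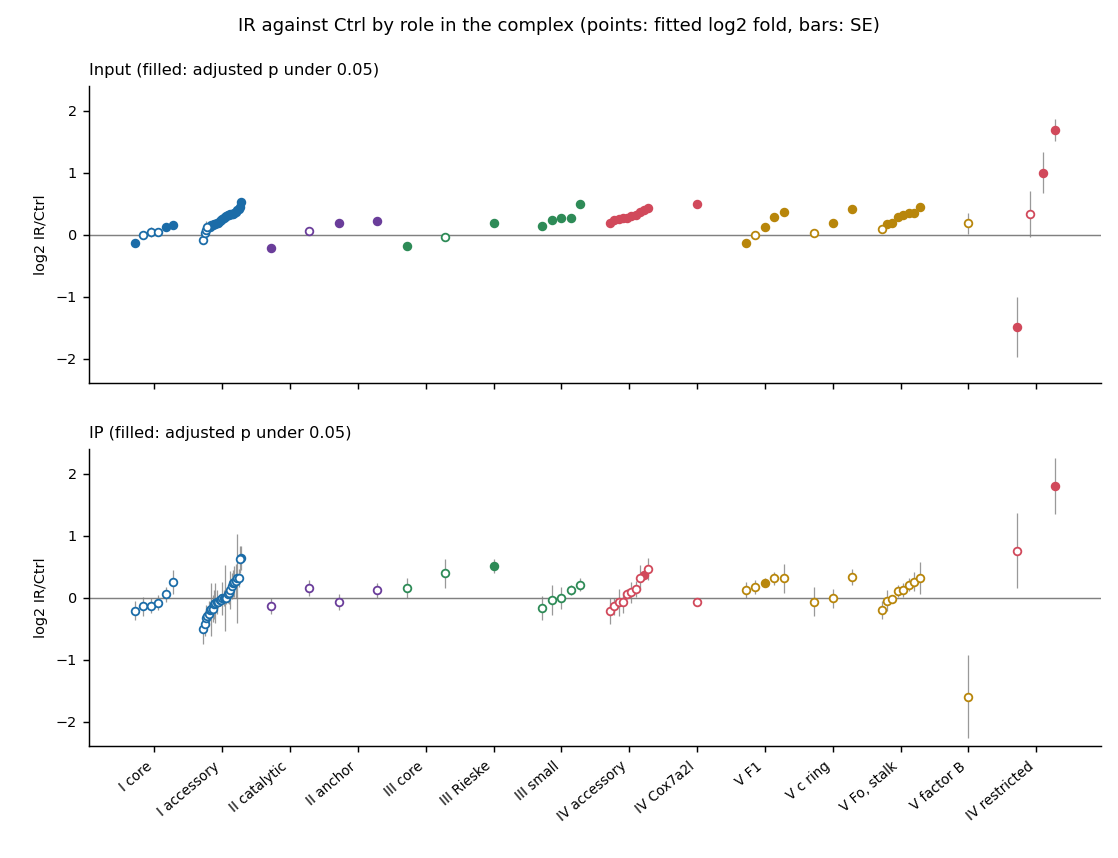
Log2 change from Ctrl to IR in Input (upper panel) and IP (lower panel) for the tested members but 1, grouped by complex and role, with bars for the standard error and filled points at adjusted p under 0.05. In Input the core and catalytic subunits lie around 0 (median 0.041) and most of the others above it (median 0.27), and in IP few points are filled.

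The rise also followed length. Up to 1000 bases of merged exons, 90% of 20 members were higher against 40.3% of coding genes, and from 1000 to 2000 bases 93.5% of 31 members against 35.5%. From 2000 to 4000 bases it was 52.6% of 19 members against 25.9%, and over 4000 bases 40% of 10 members against 18.3%, with another 40% of these members lower. Spearman's rho of the Input change with transcript length was -0.60 across members and -0.28 across coding genes, with the libraries shared by all genes. The share of reads outside genes (27.0% and 24.7%) and the neutrophil and myeloid marker sums given above also differed between the Input groups, and their part in the rise was not tested.

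Among other lists, 79 of 82 cytosolic ribosomal proteins were higher and 2 lower, with a median of 0.44. Of the 13 mitochondrially encoded subunits 8 were higher and 2 lower (median 0.28), and their sum went from 8033 to 9627 CPM. Among the other mitochondrial lists, 0 of 17 TCA cycle enzymes were higher and 4 lower (-0.07), complex I assembly factors gave 1 and 4 of 17 (-0.10), regulators of biogenesis 2 and 10 of 15 (-0.22), and mitochondrial ribosomal proteins 16 and 14 of 77 (0.011). Import translocases gave 5 higher and 9 lower of 21 (-0.023), assembly factors of complexes II to V 12 and 3 of 31 (0.086), proteasome subunits 14 and 3 of 39 (0.019), and Cyc1, Cycs and Ndufab1 gave 1 and 2 (-0.19).

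The promoters of the members were searched on both strands for sites of factors known for respiratory genes. The letters were GCGCATGC for NRF1, CCGGAAG for GABPA and other ETS factors, AAGATGGC for YY1 and TCAAGGTCA for ERR alpha. In Input the factors' own mRNAs changed with IR by log2 -0.22 for Nrf1, -0.49 for Gabpa and -0.32 for Yy1. Esrra, for ERR alpha, changed by 0.30, and all were past the threshold by edgeR. Their part in the rise of the members was not tested. RefSeq promoter windows of 300 bases (250 before to 50 after the start, GRCm38.p6) were found for 68 of the 85 members. NRF1 letters occurred in 14.7% of members and 3.05% of the 27025 genes with a window, ETS letters in 23.5% and 9.93%, YY1 letters in 14.7% and 3.19% and ERR alpha letters in 2.94% and 0.466%. At least 1 of them was present in 31 members, 45.6%, against 15.3% of all genes. No filter for coding type or expression was applied to the 27025 genes, so they are not matched to the members. Among the 52 matched members higher in IR Input the shares were 15.4%, 23.1%, 13.5% and 3.85%, and among the 16 others 12.5%, 25%, 18.8% and 0%. For each motif but ERR alpha the shares among members that rose and among the others lay within a few promoters of each other, and ERR alpha letters were found in 2 promoters in all.

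For illustration, 3 promoters of members that rose are given 5′ to 3′ on the strand of the gene with the matches in capitals: Atp5k (chr5:108434350-108434649, minus strand) with NRF1 and ETS letters, Sdhd (chr9:50603800-50604099, minus strand; log2 0.19 in Input) with ETS and ERR alpha letters, and Ndufa3 (chr7:3617123-3617422, plus strand) with YY1 letters.
Atp5k promoter: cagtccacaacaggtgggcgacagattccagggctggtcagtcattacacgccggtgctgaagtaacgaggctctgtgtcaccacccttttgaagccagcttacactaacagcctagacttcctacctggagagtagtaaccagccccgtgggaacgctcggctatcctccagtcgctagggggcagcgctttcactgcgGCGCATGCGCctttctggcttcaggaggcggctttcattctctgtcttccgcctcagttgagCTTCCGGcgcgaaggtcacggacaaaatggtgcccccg
Sdhd promoter: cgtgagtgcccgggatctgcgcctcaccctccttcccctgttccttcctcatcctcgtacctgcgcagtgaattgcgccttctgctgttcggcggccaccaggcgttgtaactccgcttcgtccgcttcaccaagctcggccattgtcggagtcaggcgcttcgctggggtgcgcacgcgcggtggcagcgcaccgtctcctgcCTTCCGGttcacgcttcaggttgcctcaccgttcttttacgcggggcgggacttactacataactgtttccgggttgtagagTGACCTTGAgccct
Ndufa3 promoter: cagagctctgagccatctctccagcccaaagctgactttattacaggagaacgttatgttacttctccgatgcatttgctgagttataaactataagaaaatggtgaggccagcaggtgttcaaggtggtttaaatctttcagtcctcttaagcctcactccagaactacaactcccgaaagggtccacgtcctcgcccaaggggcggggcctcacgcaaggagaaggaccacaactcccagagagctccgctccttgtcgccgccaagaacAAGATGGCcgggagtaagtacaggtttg
A match describes letters in these windows and says nothing of binding there.

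In the IPs themselves irradiation moved few members. Of 78 tested members 5 (6.41%) were higher in IR and 0 lower (edgeR), against 6.12% and 9.85% of all genes. The share higher was thus close to that over all genes. At an unadjusted p under 0.05 the counts were 10 higher and 3 lower. With DESeq2 6 were higher and 0 lower. The median log2 change was 0.028 over members and 0.062 over all genes, and with scaling by library size alone both shifted up, to 0.24 and 0.27.

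The members called higher were Uqcrfs1, the Rieske iron-sulfur protein, Cox4i1, Atp5a1, Ndufa8 and Cox6b2. Uqcrfs1 had 27.2, 32 and 29.8 CPM in the Ctrl IPs and 39.9, 44.2 and 41.5 CPM in the IR IPs (log2 0.51, SE 0.12, adjusted p = 0.00668 by edgeR). Cox4i1 had 148, 142 and 124 CPM and then 178, 177 and 173 CPM (log2 0.36, SE 0.074, adjusted p = 0.00306 by edgeR). These groups did not overlap, and both genes were also higher in Input, Uqcrfs1 going from 93.1, 96.6 and 89.7 CPM to 111, 113 and 110 CPM. Atp5a1 changed by 0.24 (SE 0.074, adjusted p = 0.0373 by edgeR), Ndufa8 by 0.64 (SE 0.2, adjusted p = 0.0422) and Cox6b2 by 1.80 (SE 0.45, adjusted p = 0.0122). Of the 5, 2 were called in every alternative analysis.

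The last question was whether recovery in the YTHDF2 IP, taken as IP against Input, differed between IR and Ctrl. By the interaction of the 4 groups 25 of 80 members had lower recovery after IR and 0 higher (edgeR), against 13.9% and 6.28% of all genes, with a median of -0.29 over members, -0.083 over all genes and -0.29 over short coding genes, but with scaling by library size alone 3 were lower and 7 higher and the median turned to 0.026, where that of all genes moved to 0.23. At an unadjusted p under 0.05 the counts were 35 lower and 3 higher, and DESeq2 gave 20 lower and 2 higher. Whether recovery fell outright cannot be told from these libraries.

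By complex the lower members were 12 of 36 in complex I (median -0.32), 0 of 4 in complex II (-0.24), 2 of 8 in complex III (-0.25), 6 of 15 in complex IV (-0.39) and 5 of 17 in complex V (-0.17) with TMM scaling, and the median turned positive for all members together under library size scaling. They included 2 of the 15 core and catalytic subunits. Of the 25 members, 24 were also below 0 with library size scaling. The 25 were picked by the test on these same libraries, so this shared sign adds no support of its own. Only Cox7a2l and Ndufb7 were called lower in each of the 10 alternative analyses.

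Cox7a2l was the member most recovered in the YTHDF2 IP. Its log2 IP against Input was 1.93, 1.95 and 2.03 in the Ctrl pools and 1.32, 1.35 and 1.28 in the IR pools. Its change was -0.65 (SE 0.056, adjusted p = 4.81e-08 by edgeR) with TMM and -0.34 (adjusted p = 2.31e-04) with library size scaling. Its Input rose with IR, whereas its IP values of 807 to 812 CPM in Ctrl and 734 to 800 CPM in IR gave a log2 difference of -0.074 with TMM (adjusted p = 0.293 by edgeR) and of 0.13 with library size scaling (adjusted p = 0.0434). Ndufb7, a subunit on the outer face of complex I, had -0.52, -0.33 and -0.45 in the Ctrl pools and -0.92, -1.0 and -1.09 in the IR pools. Its change was -0.57 (SE 0.076, adjusted p = 1.63e-05 by edgeR) with TMM and -0.26 (adjusted p = 0.0277) with library size scaling.

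Uqcrh had -0.81, -0.73 and -0.75 in the Ctrl pools and -1.2, -1.21 and -1.26 in the IR pools, a change of -0.46 (SE 0.07, adjusted p = 6.33e-05 by edgeR) with TMM. Its Input rose, and its IP, at 85.6 to 92.4 CPM in Ctrl and 94.9 to 99.1 CPM in IR, did not overlap but was not past the threshold (log2 0.12, adjusted p = 0.348 by edgeR). Ndufa13, which sits in the membrane arm of complex I, had -0.61, -0.61 and -0.62 in the Ctrl pools and -1.09, -1.2 and -1.09 in the IR pools (change -0.51, SE 0.073, adjusted p = 3.31e-05 by edgeR), although 30% of its exon bases overlap Tssk6 on the opposite strand. With library size scaling Uqcrh was at -0.15 (adjusted p = 0.16) and Ndufa13 at -0.20 (adjusted p = 0.075), in the same direction but not past the threshold. Cox7c and Cox6c of complex IV changed by -0.56 and -0.39 and Atp5h of complex V by -0.46 with TMM, also below 0 and not past the threshold with library size scaling.

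**Figure D5:**
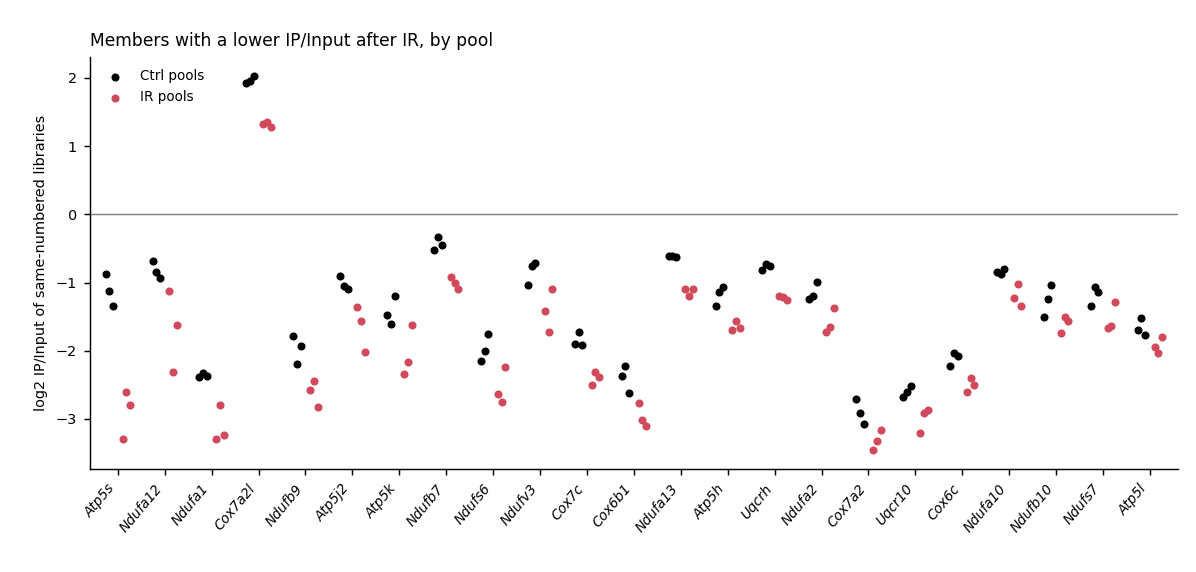
Log2 IP against Input per pool (Ctrl and IR, 3 points each) for 23 of the 25 members with lower recovery after IR. Cox7a1 is left out for its low counts. Cox7a2l stands apart at 1.93 to 2.03 in Ctrl and 1.28 to 1.35 in IR, and all other members plotted lie below 0.

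Per pool, the median log2 IP against Input over the 80 members was -1.87, -1.85 and -1.84 in Ctrl and -2.25, -2.10 and -2.10 after IR, with means over pools for all genes of 0.018 and 0.038. The conditions thus did not overlap for the members under TMM scaling. The share of reads outside genes also differed between the IP groups, 42.3% in Ctrl and 49.4% to 54.1% in IR, and its part in this difference was not tested. Beside the members, 65 of 82 cytosolic ribosomal proteins had lower recovery after IR with 0 higher (median -0.39), 30 of 77 mitochondrial ribosomal proteins with 0 higher (-0.44), 4 of 17 TCA cycle enzymes with 0 higher (-0.012) and 11 of 39 proteasome subunits with 0 higher (-0.22), all with TMM scaling. On the same scaling, complex I assembly factors gave 6 lower and 1 higher of 17 (-0.40), assembly factors of complexes II to V 7 and 1 of 31 (-0.29), biogenesis regulators 3 and 1 of 16 (-0.22), import translocases 4 and 1 of 21 (-0.15), mitochondrially encoded subunits 5 and 2 of 13 (-0.28), and Cyc1, Cycs and Ndufab1 0 and 0 (-0.23).

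Some counts are uncertain. For 21 members there were 41 annotated pseudogenes with at least 95% identity over at least 100 bases, holding 20% as many counts as Ndufa12, 8% as many as Atp5l, 3.53% as many as Uqcrb and 0.117% as many as Cox7a2l. Exons of 6 members overlap another gene on the same strand, among them Ndufb9 with 19.5% of its exon bases, and those of 26 members overlap one on the opposite strand.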

How the data were processed

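RNA from CD11b+ myeloid cells of MC38 tumors was measured in 12 libraries. As described by the authors, reads were trimmed with Trimmomatic 0.39 (version per the labels), aligned to mm10 with HISAT and assigned to GENCODE genes with HTSeq, and the deposited values are raw counts per gene, 1 file per library with no pooling. The strand option of the counting is not given in the sources used here. Summary lines for unassigned reads were kept out of library sizes and tests.

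Gene symbols, exon lengths and transcripts came from a GENCODE annotation of GRCm38, and 99.93% of the 54446 IDs matched (97.76% with the same version number). In each comparison the genes that reached 10 counts in 3 or more libraries entered the test, run in R 4.3.3 with edgeR 4.0.16 (TMM scaling, quasi-likelihood test), with Benjamini-Hochberg adjustment over all genes tested and a threshold of 0.05. The binding change is the interaction of IP against Input with IR against Ctrl in a fit of 4 group means. It names a change in IP recovery and, without a control IP, not in YTHDF2 binding itself. CPM use TMM-scaled library sizes, and log2 values per pool use a prior count of 2. The fits were tested on simulated counts before use. Counting error at 3 counts sets the floor of each library, and amplification duplicates are not removed from counts without molecular identifiers.

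Subunits and gene lists were chosen with earlier results of these data known, and the marker sets likewise, so list counts and medians are descriptions. Named genes were core or catalytic subunits and isoform pairs, and in each comparison and complex the 2 members with the largest rise and the 2 with the largest fall among those past the threshold, with groups that did not overlap and a mean of at least 100 counts. The values of 1 complex I member are not reported here and are left out of the plots, though it stays in the counts and medians. Other members named with values were picked after their values were seen. IP and Input with the same number come from 1 lysate by the methods, so they are paired by design, yet deviations of same-numbered libraries from their group means correlated at only -0.019 to 0.024 over 20720 genes. The alternatives were DESeq2 1.42.0 or its size factors, library size alone, looser and stricter count filters, coding genes only, all 12 libraries in 1 fit, a replicate block, and each replicate number left out.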

Additional observations from a re-analysis of the deposited data

Results flagged for a closer look

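Recovery with YTHDF2 differed between IR and Ctrl for 25 of 80 tested members, by the interaction in the edgeR fit with TMM scaling (adjusted p under 0.05, n = 3 pools per group). All 25 were lower after IR, where 13.9% of all genes were lower and 6.28% higher, and 24 of them are given here. The median change of the members equalled that of short coding genes, as given above. With scaling by library size alone 24 of the 25 were still below 0, Atp5l was above it, and 3 were past the threshold. In complex I the log2 differences (IR minus Ctrl) were -0.83 for Ndufa12, -0.73 for Ndufa1, -0.64 for Ndufb9, -0.57 for Ndufb7, -0.56 for Ndufs6, -0.56 for Ndufv3, -0.51 for Ndufa13, -0.44 for Ndufa2, -0.35 for Ndufa10, -0.34 for Ndufb10 and -0.34 for Ndufs7. In complex III they were -0.46 for Uqcrh and -0.40 for Uqcr10.

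In complex IV the differences were -0.65 for Cox7a2l, -0.56 for Cox7c, -0.55 for Cox6b1, -0.41 for Cox7a2 and -0.39 for Cox6c. Cox7a1 gave -3.32 on 1, 0 and 4 counts in the IR IPs. In complex V they were -0.60 for Atp5j2, -0.58 for Atp5k, -0.46 for Atp5h and -0.26 for Atp5l. Atp5s, coupling factor B, gave -1.87 (SE 0.44, adjusted p = 0.00428 by edgeR), with 2.02, 2.16 and 1.3 CPM in the Ctrl IPs and 0.494, 0.725 and 0.569 CPM in the IR IPs, while its Input values of 3.42 to 4.75 and 4.26 to 5.35 CPM overlapped. Ndufb10 and Ndufs7 had per-pool values that overlapped between the conditions. Pseudogene copies hold 20% as many counts as Ndufa12, and 19.5% of the exon bases of Ndufb9 overlap another gene on the same strand. What these differences share beyond their direction was not tested.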

How the results depend on the processing

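Over 1659 recomputed values of single genes, 1510 kept their direction and side of the threshold, 56 lost and 26 gained the call, 65 changed sign without a call in either analysis, and 2 changed sign to a call, both with library size scaling: Cox7a2l in IP (IR against Ctrl) from -0.074 to 0.13 and the binding change of Atp5c1 from -0.047 to 0.27. Medians over members became -1.95 (library size) and -1.67 (coding genes only) for IP against Input in Ctrl, -1.87 and -1.88 after IR, 0.24 for IR against Ctrl in IP (library size), and the binding change turned from -0.29 to 0.026 (library size). Members lower in Input with IR went from 5 to 0 with all 12 libraries in 1 fit and to 3 to 5 without 1 replicate number. Members higher in Input ranged from 52 to 57 without 1 replicate number. Members higher in IP with IR went from 5 to 18 (library size), 8 (stricter filter), 10 (all 12 libraries) and 3 to 6 (1 replicate number left out), and lower from 0 to 1 (no filter), 1 (stricter filter) and 5 (all 12 libraries). For the binding change, members higher were 1 with DESeq2 size factors, 7 with library size, 2 with DESeq2, 1 without filter, 4 with the stricter filter, 3 with coding genes only and 0 to 1 without 1 replicate number. Members lower went from 25 to 3 with library size, 16 with the stricter filter, 16 with coding genes only, and 14, 13 and 17 without replicate 1, 2 and 3. The cause of these changes was not tested. With the replicate block the members higher and lower were 1 and 74, 1 and 77, 62 and 5, 5 and 0, and 0 and 26 in the order of the comparisons above, so it moved no count by over 1.5 times. Depth limits Cox7a1, Cox6a2, Cox6b2 and Cox4i2, which had few counts in IP.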
